A study of Mus musculus with 16 samples.

Results

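Imprinted genes are the genes of which mainly the copy from a single parent is expressed, and 36 mouse genes of this class were followed in blastocysts exposed to kinase inhibitors. Of these, 31 had at least 1 probe set whose annotation named that gene and no other, and they are described here among the 18193 genes that the arrays name in this way. The 31 genes comprised 19 expressed from the paternal copy, 11 expressed from the maternal copy and Gnas, a locus with transcripts of both kinds, and were covered by 87 of the 45037 probe sets. In 26 of the 31 genes the brightest probe set passed the signal filter and was tested. Peg10, Nnat, Usp29, Nap1l5 and Zim1 were too dim to test, and Rtl1, Dio3, Zrsr1, H19 and Cd81-AS had no probe set naming them alone.

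Total RNA from blastocysts was compared between 4 groups of 3 samples. WT was the control, for which the labels name no treatment and no solvent. The SB group received 20 µM SB203580, an inhibitor of the stress kinase p38. The SP group received 25 µM SP600125, an inhibitor of the kinase JNK, and the U group received 20 µM U0126, an inhibitor of MEK, the kinase that activates ERK. All groups were preimplantation mouse embryos, and the labels give no strain, time of exposure or number of pooled embryos. In every group replicate 1 was run on a pair of arrays, 430A and 430B, after Small Sample labelling, and the other replicates on single 430 2.0 arrays after Two-Cycle labelling. Signals of replicate 1 are therefore set only against each other. Whether replicates came from separate cultures is not stated, and the p-values cover the spread among these samples only, which may be technical.

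In mammals, most imprinted genes lie in clusters, and a differentially methylated control region in each cluster, marked in the egg or the sperm, keeps the parental copies apart. In the Igf2-H19 cluster the insulator protein CTCF binds the unmethylated maternal control region, so that enhancers act on the noncoding RNA H19 on the maternal copy and on the growth factor gene Igf2 on the paternal copy. Several imprinted genes act on fetal and placental growth, with many paternally expressed members known as promoters of growth and several maternally expressed ones as inhibitors. In the placental lineage a further group, among them Slc38a4, Sfmbt2 and Gab1, is kept imprinted by a histone mark from the egg, trimethylation of histone H3 at lysine 27. The arrays measured total transcript and do not separate the parental copies, and in bulk samples fewer cells of a type and less RNA per cell cannot be told apart.

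The sequences that belong to the genes with differences are given first. The promoters of Igf2, Grb10 and Phlda2 are shown because these were the 3 members that differed between groups. Each run is the 250 bases upstream of a RefSeq transcription start on GRCm38.p6, with the CG dinucleotides, where cytosine methylation occurs, in capitals. For Igf2, which has 4 listed starts, and Grb10, which has 2, the start with the most CG is shown. All 3 lie on the minus strand, at chr7:142658805-142659054 for Igf2, chr11:12037421-12037670 for Grb10 and chr7:143502525-143502774 for Phlda2.
Igf2: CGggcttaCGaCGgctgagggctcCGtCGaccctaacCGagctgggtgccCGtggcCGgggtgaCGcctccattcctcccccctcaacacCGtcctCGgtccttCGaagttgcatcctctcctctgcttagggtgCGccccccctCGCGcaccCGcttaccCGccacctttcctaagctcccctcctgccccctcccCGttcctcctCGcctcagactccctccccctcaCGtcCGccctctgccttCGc
Grb10: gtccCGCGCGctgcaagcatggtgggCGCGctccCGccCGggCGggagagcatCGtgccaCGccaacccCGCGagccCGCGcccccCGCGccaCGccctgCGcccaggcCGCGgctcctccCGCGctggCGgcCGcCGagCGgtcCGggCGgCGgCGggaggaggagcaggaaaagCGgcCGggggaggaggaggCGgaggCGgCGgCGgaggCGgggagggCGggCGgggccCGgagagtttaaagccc
Phlda2: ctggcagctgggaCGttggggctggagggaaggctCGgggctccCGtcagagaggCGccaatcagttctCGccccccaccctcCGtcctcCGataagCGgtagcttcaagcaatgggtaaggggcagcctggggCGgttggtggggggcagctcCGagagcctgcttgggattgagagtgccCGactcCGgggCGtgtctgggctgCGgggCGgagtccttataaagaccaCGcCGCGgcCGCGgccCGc
These runs hold 22, 40 and 21 CG, and the median over the 32851 listed promoters was 6. The runs of Igf2 and Grb10 were picked for their CG: the other starts of Igf2 had 10, 6 and 1 and the other start of Grb10 had 8. For Phlda2, with a single start, 16.3% of all promoters had as many. Motifs of transcription factors that act below the MAP kinases were searched on both strands: the AP-1 motif TGANTCA, present in 6.75% of all promoters, the CRE motif TGACGTCA (1.55%) and an ETS motif CCGGAAGT (2.88%). None was found in any listed start of the 3 genes, which says only that these letters are not in these windows.

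A further probe set carried the largest difference of the imprinted loci. Its annotation names both H19 and Mir675, since the hairpin of miR-675 lies within H19, and it is called the H19/Mir675 probe set here and counted apart from the members. The mature products of that hairpin, with the seed (bases 2 to 8) in capitals, come from RefSeq on GRCm38.p6, from chr7:142577112-142577133 and chr7:142577078-142577099 on the minus strand. The arrays do not measure the mature miRNAs.
mmu-miR-675-5p: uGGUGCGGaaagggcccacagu
mmu-miR-675-3p: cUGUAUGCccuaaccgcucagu

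In the Igf2-H19 cluster the signals of both transcripts were lower with the MEK inhibitor U0126. With U0126 the H19/Mir675 probe set fell to a ratio of 0.0505 to control and Igf2, the fetal growth factor gene, to a ratio of 0.457, each lower in all 3 samples. The p38 and JNK inhibitors gave no called change at either probe set. A change was called at an adjusted p under 0.05 in limma, adjusted by the Benjamini-Hochberg method over all 27022 probe sets tested. It is given as a log2 change, the difference of mean log2(signal + 12.6), with its standard error (SE) and n = 3 per group.

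The H19/Mir675 probe set (1448194_a_at) had control signals of 5861.8, 7765.5 and 7007.9 in replicates 1, 2 and 3. With U0126 the signals were 233.2, 759.7 and 204.6. Every U0126 sample lay far below the control samples of its array type, and the groups did not overlap. The change was -4.31 ± 0.33 (95% interval -5.01 to -3.6, adjusted p = 1.1e-05 in limma). It ranked 1 by p and 2 by size of change among the 27022 probe sets tested, of which 0.448% were called in this comparison. The change was -4.58 within the 430A arrays and -4.17 within the 430 2.0 arrays.

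With SB203580 the H19/Mir675 signals were 2062.2, 7278 and 6017.4. With SP600125 they were 1762.6, 5056.8 and 4569.4. On the 430A array both were well below the control, while on the 430 2.0 arrays the SB203580 signals overlapped the control range and the SP600125 signals lay under it. The changes were -0.6 ± 0.33 with SB203580 (adjusted p = 0.62 in limma) and -0.99 ± 0.33 with SP600125 (adjusted p = 0.321), with per-replicate differences of -1.5, -0.02 and -0.29 and of -1.73, -0.54 and -0.69. The difference between inhibitors was itself tested: the signal was higher than with U0126 by 3.7 in the SB203580 group (adjusted p = 3.58e-05 in limma) and by 3.32 in the SP600125 group (adjusted p = 7.53e-05). The p38 and JNK inhibitors differed by 0.38, which did not pass (adjusted p = 0.778 in limma).

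Igf2 (1448152_at) had control signals of 948.9, 1121.5 and 1082.5. With U0126 they were 335.4, 608.9 and 513.2, below the control of the same array type in each sample. Igf2 fell by 1.13 on the log2 scale (SE 0.19, 95% interval -1.54 to -0.72, adjusted p = 0.0114 in limma). It was the only member called among the 26 tested, where 0.658% of the 12614 genes tested were called. The Igf2 signals of the SB203580 samples were 496.2, 1072.8 and 937.2, and those of the SP600125 samples 588, 1103.8 and 785.3. All SB203580 samples lay under the control of their array type, so those groups did not overlap, as held for 26.4% of genes in this comparison. The SB203580 change was -0.92 within the 430A arrays and -0.13 within the 430 2.0 arrays. Of the SP600125 samples, replicate 2 lay within the control range of the 430 2.0 arrays and the others under the control. The changes were -0.4 ± 0.19 (95% interval -0.8 to 0.01, adjusted p = 0.556 in limma) and -0.39 ± 0.19 (95% interval -0.79 to 0.02, adjusted p = 0.623). Igf2 was higher with SP600125 than with U0126 by 0.74 (adjusted p = 0.0467 in limma), and by 0.74 with SB203580 than with U0126, where it did not pass (adjusted p = 0.0743). A second Igf2 probe set (1415931_at), with a mean 430 2.0 signal of 23.8, was too dim to test. Its signals were 18.9, 33.3 and 47 with U0126 against 44.5, 23.4 and 9.5 in the control, so the result belongs to the brighter probe set.

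The Igf2 call with U0126 was lost on the 430 2.0 arrays alone (-0.96, adjusted p = 0.109 in limma), without control replicate 1 (-0.94, adjusted p = 0.0892), without U0126 replicate 3 (-1.08, adjusted p = 0.0567) and with no intensity trend in the variance (adjusted p = 0.142), and over all alternatives its adjusted p ran from 0.0061 to 0.142. The Igf2 difference between SP600125 and U0126 was lost in 10 of the 12 omissions of 1 sample and under 3 other settings, with an adjusted p of up to 0.192. The call of the H19/Mir675 probe set with U0126 held under all 11 other settings and 12 omissions, with changes from -4.74 to -3.77 and an adjusted p of at most 0.0338 in limma.

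**Figure D1:**
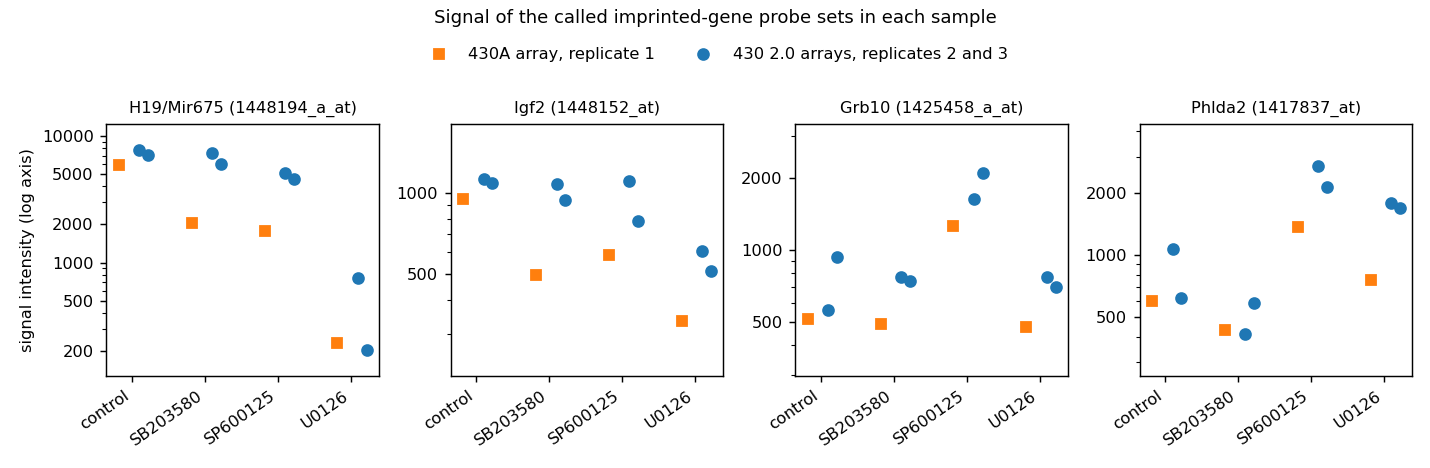
Signal intensity (log axis, each panel with its own range) of the H19/Mir675, Igf2, Grb10 and Phlda2 probe sets in each of the 12 samples. Squares are replicate 1 on the 430A array and circles are replicates 2 and 3 on 430 2.0 arrays: the U0126 signals of H19/Mir675 lie between 204.6 and 759.7 with every control at 5861.8 or more, and the SP600125 samples are the highest of each array type for Grb10 and Phlda2.

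Values that moved with the U0126 group stand beside these results. Of 17 markers of primitive endoderm, the cells that line the cavity side of the inner cell mass, 2 fell and none rose with U0126, all 17 had a negative change, 12 had an unadjusted p under 0.05 in limma, and the median change was -0.55. Their summed signals were 22716, 35578 and 45464, against 32322, 55632 and 53147 in the control. Of 10 epiblast markers, Fgf4 and Sox2 rose and 6 had an unadjusted p under 0.05 in limma, with a median of 0.42. None of 11 tested trophectoderm markers of 12 listed was called (2 had an unadjusted p under 0.05 in limma, median -0.09), with 6 negative and 5 positive changes. Their summed signals were 50432, 129600 and 136488 against 48767, 125550 and 137832. Krt8, Krt18 and Id2 made up most of these sums in every group, so the sums say little about the other markers. These markers show that the samples carried transcripts of all 3 blastocyst lineages. On the 430A arrays the ratio of the 3' to the 5' actin probe sets, a measure of RNA integrity and labelling, was 1.62 with U0126, 2.47 in the control, 2.81 with SB203580 and 3.66 with SP600125. On the 430 2.0 arrays it lay between 1.58 and 1.75 over all groups. The U0126 arrays of that type had median signals over all probe sets of 77.7 and 83, against 61.1 to 68.9 in the other groups. The part of these values in the results was not tested.

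Among maternally expressed genes, Grb10 and Phlda2 rose with the JNK inhibitor SP600125. Grb10 encodes an adaptor protein that dampens insulin and IGF receptor signalling, and Phlda2 encodes a small protein that limits placental growth. Both were higher with SP600125 than in the control in every replicate, by 2.5 and 2.69 times on average. They were 2 of the 26 tested members called in this comparison, both higher, where 0.904% of all genes tested were called. No member fell.

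Grb10 (1425458_a_at) had control signals of 513.3, 560.2 and 932.1. With SP600125 the signals were 1256.1, 1641.5 and 2105. The SP600125 samples stood above the samples of all other groups on the same array type. The change was 1.32 ± 0.19 (95% interval 0.93 to 1.72, adjusted p = 0.00233 in limma), with 1.27 within the 430A arrays and 1.35 within the 430 2.0 arrays. With SB203580 the signals were 490.8, 773.3 and 742, and with U0126 476.1, 771.1 and 699.7. Both sets overlapped the control, with changes of 0.02 (95% interval -0.37 to 0.42) and -0.02 (95% interval -0.41 to 0.37). Grb10 was also higher with SP600125 than with SB203580 (the latter lower by -1.3, adjusted p = 0.00189 in limma) and than with U0126 (by 1.34, adjusted p = 0.000832).

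Grb10 has 2 further tested probe sets, 1430164_a_at with a mean signal of 65.5 and 1425457_a_at with 48.1 on the 430 2.0 arrays. Their changes with SP600125 were 0.13 ± 0.44 and -0.42 ± 0.64, and neither was called. With the mean of its 3 probe sets, Grb10 changed by 0.35 (adjusted p = 0.749 in limma), so the result belongs to the brightest probe set. Without the intensity trend the adjusted p of that probe set was 0.0887.

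Phlda2 (1417837_at) had control signals of 594.3, 1070.8 and 617.3. With SP600125 the signals were 1367.3, 2706.6 and 2134.3, above every control sample of the same array type. The change was 1.43 ± 0.23 (95% interval 0.94 to 1.92, adjusted p = 0.00636 in limma). With SB203580 the signals were 431.7, 413.5 and 586.8, all under the control, and with U0126 they were 751, 1790.1 and 1687.9, all above it. Neither passed the test against the control, at -0.62 ± 0.23 (adjusted p = 0.358 in limma) and 0.83 ± 0.23 (adjusted p = 0.139).

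Compared directly, the inhibitors differed at Phlda2. It was lower with SB203580 than with SP600125 by -2.05 ± 0.23 (adjusted p = 2e-04 in limma) and than with U0126 by -1.46 ± 0.23 (adjusted p = 0.00383). SP600125 and U0126 differed by 0.59 (95% interval 0.1 to 1.08, adjusted p = 0.187). With no intensity trend the adjusted p of Phlda2 was 0.143 for SP600125 against control and 0.0964 for SB203580 against U0126. In all, 2 members were called lower with SB203580 than with SP600125 (1.06% of genes called), 1 lower with SB203580 than with U0126 (1.96%) and 2 higher with SP600125 than with U0126 (4% of genes called).

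Markers also moved with the SB203580 group, where Phlda2 was lowest. All 11 trophectoderm markers had a negative change from control, none called (4 with an unadjusted p under 0.05 in limma, median -0.2), and their summed signals were 42309, 113406 and 119027. Eomes, a trophoblast stem cell factor gene, was lower with SB203580 than with SP600125 by -0.92 (adjusted p = 0.0012 in limma) and than with U0126 by -0.57 (adjusted p = 0.0297), and the keratin gene Krt7 was lower than with U0126 by -1.15 (adjusted p = 0.000997). Of 17 primitive endoderm markers Amn fell from control, 15 had a negative change, and the median was -0.52, with summed signals of 22085, 44026 and 45569. No epiblast marker was called of 10 (2 with an unadjusted p under 0.05 in limma, median 0.09). The part of these marker values in the Phlda2 differences was not tested.

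In the SP600125 samples 11 of 17 primitive endoderm markers fell, with a median change of -1.33 and summed signals of 20638, 38923 and 36697. Of 11 trophectoderm markers only Elf5 fell, with a median of 0.01 over the list, and the summed signals were 48875, 127342 and 135090. No epiblast marker was called of 10 (2 had an unadjusted p under 0.05 in limma), with a median of -0.15. Of 4 tested blood markers of 7 listed, Laptm5 rose, and the summed signals were 705, 1845 and 1891 against 405, 847 and 897 in the control. Laptm5 alone made up most of these sums, with 370.4, 1604.7 and 1576.3 against 118.3, 696.9 and 660.5, except in control replicate 1. The leukocyte marker Ptprc and the globin genes Hbb-bt and Hba-a1 were not tested, being dim or without a probe set of their own. Of 8 cumulus cell markers, 1 was tested and not called. The part of these marker changes in the rise of Grb10 and Phlda2 was not tested. The 3 comparisons with the control share the control samples.

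Phlda2 belongs to the Kcnq1 cluster, where the paternally expressed noncoding RNA Kcnq1ot1 silences maternally expressed neighbours on its own chromosome. With SP600125 the other tested maternal genes of the cluster did not pass the test. Ascl2, a transcription factor gene of placental precursors, had signals of 281.9, 357.7 and 236.1 against 217.3, 93.6 and 28.2 in the control. The SP600125 samples were above the control, and the change was 1.59 ± 0.45 (adjusted p = 0.179 in limma), which passed the test only without control replicate 1 among the 12 omissions. With U0126 the Ascl2 change was 1.34 ± 0.45 (adjusted p = 0.223), and its second tested probe set had changes of 1.57 and 0.75 with SP600125 and U0126. Cdkn1c, a cell cycle inhibitor gene, had 430 2.0 signals of 252 and 14.6 with U0126 and of 840.3 and 276 with SP600125, against 175.3 and 190.3 in the control. On the 430A arrays it had 164.8 with U0126 and 199.8 with SP600125, against 193. Its changes of -0.87 ± 0.65 with U0126 and 0.91 ± 0.65 with SP600125 were not called. Slc22a18, a transporter gene, changed by 0.55 ± 0.39 and Kcnq1, a potassium channel gene, by 0.07 ± 0.54 with SP600125. Kcnq1ot1 itself had changes of -0.23, -0.38 and 0.23 with SB203580, SP600125 and U0126, none called, and the 3 further tested probe sets named for it were not called either.

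The 6 members with the highest control signals on the 430 2.0 arrays were Slc38a4, Sfmbt2, Gab1, Igf2r, Ube3a and Gnas, and none was called in any comparison. Slc38a4, an amino acid transporter gene of the placenta, had control signals of 1705.9, 4061.5 and 3507.3. The SB203580 samples gave 2169.5, 3763.7 and 3949.9, the SP600125 samples 2161.6, 3940.5 and 3512.9 and the U0126 samples 1961.2, 3818.2 and 3458.8. The groups overlapped, with changes of 0.03 to 0.14 and 95% intervals within -0.22 to 0.39. Gab1, a docking protein gene of receptor tyrosine kinase signalling, had control signals of 1964.7, 3727.9 and 3327.1. The SB203580 samples gave 2308.7, 3664 and 3517.2, the SP600125 samples 1826, 3761.3 and 3365 and the U0126 samples 1661.2, 3411.5 and 3602.2. Its changes ran from -0.08 to 0.1 with intervals within -0.34 to 0.35.

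Sfmbt2, a Polycomb protein gene needed in trophoblast, had control signals of 1310.3, 2374.7 and 1998. The SB203580 samples gave 1275.7, 2823.8 and 2380.3, the SP600125 samples 1300.3, 2961 and 2801.1 and the U0126 samples 1095.2, 2740 and 2494.7. Its changes were 0.09 to 0.26, with intervals within -0.21 to 0.56. Among these bright genes, Sfmbt2, Slc38a4 and Gab1 are the ones kept imprinted by the histone mark named above, and at these brightest probe sets the intervals leave out a change of 1 log2 unit in either direction. Of their other tested probe sets, 1443176_at of Sfmbt2 had intervals reaching -1.16 with SP600125 and 1.16 with U0126, and 1448814_at of Gab1 reaching -1.03 and 1.02, while 1428111_at of Slc38a4 and 1417694_at of Gab1 stayed within -0.61 and 0.35.

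Igf2r, the maternally expressed receptor that carries IGF2 to the lysosome, had control signals of 781, 1086.3 and 1781.8. The SB203580 samples gave 705.8, 1574.4 and 1849.4, the SP600125 samples 782.6, 1463.9 and 1029.5 and the U0126 samples 775.7, 1543.5 and 2540. The 430 2.0 samples of each group were spread widely, the groups overlapped, and the changes of -0.12 to 0.33 had intervals within -0.6 to 0.81. A probe set annotated to both Igf2r and Airn, the antisense RNA that silences Igf2r, was too dim to test, with 430 2.0 signals from 10.8 to 92.5.

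Ube3a, a ubiquitin ligase gene whose imprinting is known from neurons, had control signals of 1045.2, 3916.2 and 3077. The SB203580 samples gave 1031.9, 4207.5 and 3051.9, the SP600125 samples 810.7, 3853.9 and 3419.9 and the U0126 samples 1166.5, 4283.5 and 3474.5. The groups overlapped, with changes of -0.08 to 0.15. Gnas, which encodes the stimulatory G protein alpha subunit among other products, had signals of 2301.8, 3971.1 and 3578.7 in the control and 1544.2, 3402.1 and 3298.6 with SB203580. The SB203580 samples were under the control on each array type, with a change of -0.3 ± 0.12 that did not pass (adjusted p = 0.412 in limma). With SP600125 the Gnas signals were 2249, 3823.3 and 4392 and with U0126 2445, 4108.6 and 3745.5, with a change of 0.07 in each.

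**Figure D2:**
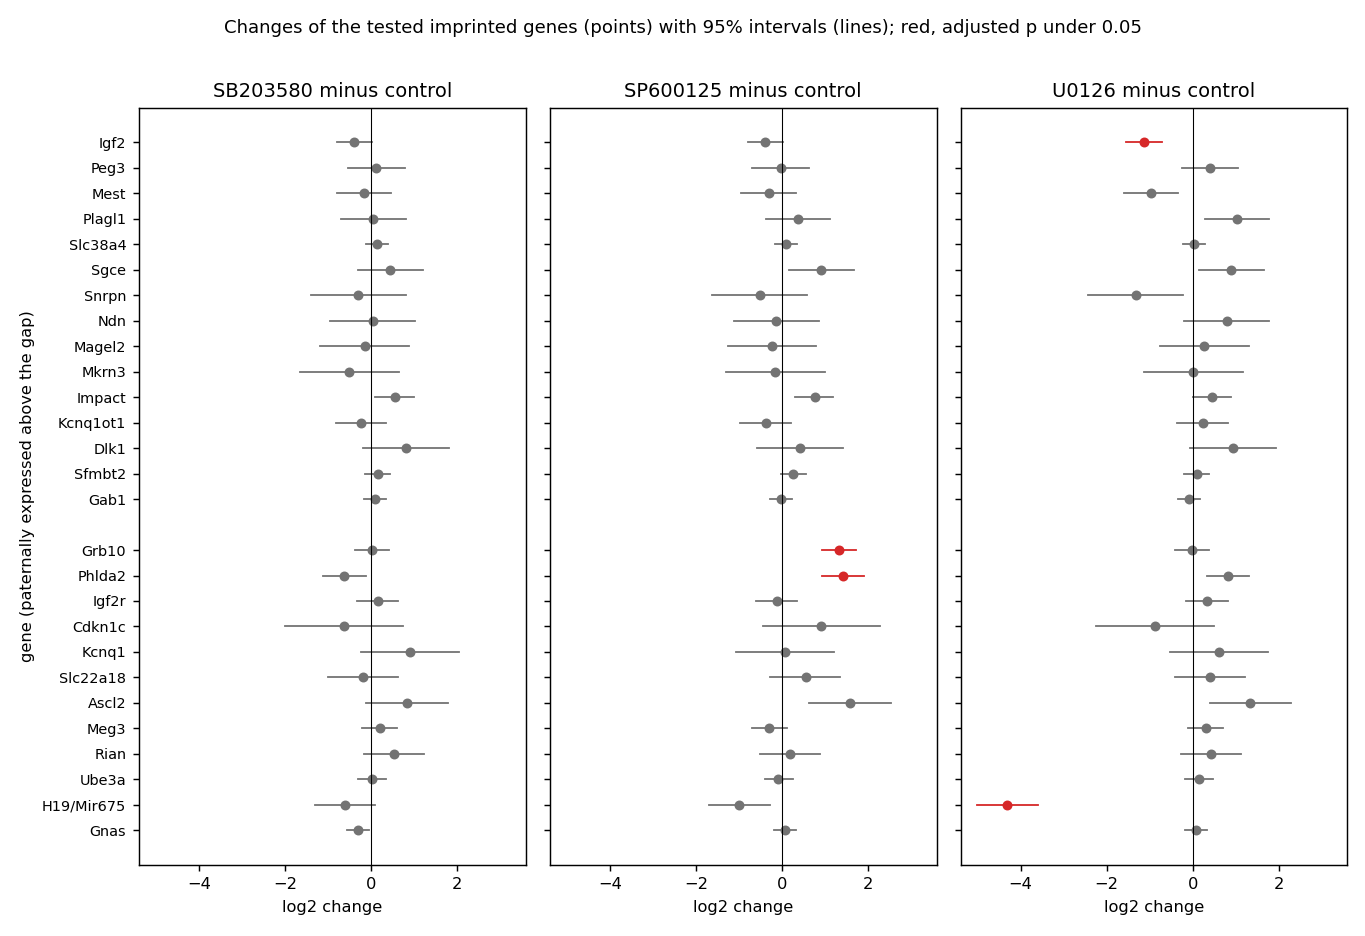
Log2 change from control (points) with 95% interval (lines) of the 26 tested members and the H19/Mir675 probe set, for SB203580, SP600125 and U0126. Paternally expressed genes are above the gap and maternally expressed genes, H19/Mir675 and Gnas below it; red marks an adjusted p under 0.05, which only Grb10 and Phlda2 with SP600125 and Igf2 and H19/Mir675 with U0126 reached.

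Over the 15 tested paternally expressed genes the median log2 change was 0.05 with SB203580, -0.03 with SP600125 and 0.23 with U0126. Over the 10 tested maternally expressed genes it was 0.09, 0.36 and 0.37. Over all 12614 genes tested it was 0.01, 0 and 0.05. None of the 26 members was called with SB203580 (0.634% of genes called), where 3 had an unadjusted p under 0.05 in limma against 11.4% of genes. With SP600125, 5 had such a p against 10.2%, and with U0126 8 against 13.4%. The groups did not overlap on either array type in 7, 10 and 7 of the 26 members with SB203580, SP600125 and U0126, where this held for 26.4%, 25.2% and 24.4% of genes. These medians and counts include Dlk1, Magel2 and Kcnq1, which passed the filter only through treated samples, as given below. Dlk1 was among the non-overlapping members with SB203580 and SP600125, Kcnq1 with SB203580 and Magel2 with SP600125. In replicate 1 a single sample stands against a single control, so no conclusion is drawn from these counts.

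The other paternally expressed members gave values that did not pass the test. Mest, which encodes a hydrolase-like protein, had signals of 82.7, 108.8 and 198.7 with U0126 against 199.6, 296.6 and 262.4 in the control. All U0126 samples were below the control of their array type, and the change was -0.96 ± 0.3 (adjusted p = 0.191 in limma). Plagl1, a zinc finger gene that regulates other imprinted genes, had signals of 339.4, 1353.3 and 899.2 with U0126 against 339.8, 493.1 and 277.5. The 430A arrays were level and both 430 2.0 arrays higher, and the change was 1.03 ± 0.35 (adjusted p = 0.239). Without U0126 replicate 1 this change of Plagl1 passed the test, while its second tested probe set (1438588_at) had a U0126 change of 0.17 ± 0.54. Impact, a regulator of the kinase GCN2, changed by 0.55, 0.76 and 0.45 with SB203580, SP600125 and U0126, with SP600125 signals of 478.7, 887.3 and 740.6 against 295.9, 434.3 and 487.8 (adjusted p = 0.168 in limma for SP600125). Its 2 other tested probe sets had SP600125 changes of -0.03 and 0.06.

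Sgce, which encodes a sarcoglycan, had signals of 152.1, 264.1 and 197.8 with SP600125 and 88.3, 205.2 and 410.8 with U0126, against 86.4, 109.4 and 105.9. Both sets lay above the control, with changes of 0.91 ± 0.36 (adjusted p = 0.45 in limma) and 0.9 ± 0.36 (adjusted p = 0.321). Peg3, a zinc finger gene at a cluster of its own, changed by 0.12, -0.03 and 0.4 and its groups overlapped. Its cluster neighbours Usp29 and Zim1 were dim.

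In the Snrpn cluster, whose human counterpart is the Prader-Willi region, the probe set naming Snrpn alone (1432096_at) had signals of 50.6, 20.9 and 25.9 with U0126 against 65.3, 90.6 and 147.4 in the control. The U0126 samples were below the control, with a change of -1.33 ± 0.52 (adjusted p = 0.312 in limma). A further 6 probe sets named Snrpn together with Snurf, which share a transcript, and 5 were tested with none called. The brightest of them (1415895_at) had signals of 2409.9, 3831.4 and 2352.6 in the control and 2499.3, 3647.4 and 2133.1 with U0126, and these overlapped, with a change of -0.05 (95% interval -0.47 to 0.36). Its change was 0.43 with SB203580 (adjusted p = 0.507 in limma) and 0.36 with SP600125 (adjusted p = 0.667). The other shared probe sets had U0126 changes from -1.02 to 0.04, and at the lowest of these (1441905_x_at) every U0126 sample lay under the control (-1.02 ± 0.47, adjusted p = 0.395 in limma).

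Ndn, a MAGE family gene of the same cluster, had 4 tested probe sets, none called. Its brightest changed by 0.04, -0.13 and 0.79 with SB203580, SP600125 and U0126, and 1435383_x_at by -0.6, 0.64 and 0.86. Mkrn3, a ubiquitin ligase gene, changed by -0.51, -0.15 and 0.01. Magel2 changed by -0.15, -0.22 and 0.27 and Dlk1, an inhibitor of Notch signalling, by 0.82, 0.42 and 0.94. In the controls Dlk1 had 430 2.0 signals of 29 and 12.5, Kcnq1 17.4 and 48.4, and Magel2 39.6 and 44.6. The mean of each pair lay under the filter of 42.9, so these 3 genes passed only through treated samples, and a higher value there was built into the choice. The same held for 5 probe sets that were not the brightest of their gene, 2 of Ndn and 1 each of Meg3, Rian and Ube3a.

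In the Dlk1-Dio3 cluster the maternally expressed noncoding RNA Meg3 had 9 tested probe sets. The brightest (1439380_x_at) had signals of 834.4, 922.6 and 859.4 with U0126 against 807.2, 741.3 and 590.4 in the control, and 536.1, 635.4 and 553.8 with SP600125. The U0126 samples were above the control and the SP600125 samples overlapped it on the 430 2.0 arrays, with changes of 0.3 ± 0.19 (adjusted p = 0.572 in limma) and -0.3 ± 0.19 (adjusted p = 0.768). The other Meg3 probe sets had U0126 changes from -0.4 to 1.19, SB203580 changes from -0.39 to 0.94 and SP600125 changes from -0.67 to 1.11, and none was called. The value of 1.11 belongs to 1429256_at, whose mean control signal on the 430 2.0 arrays lay under the filter. Rian, a noncoding RNA of the same cluster, changed by 0.53, 0.18 and 0.43 at its brightest probe set, and its 3 other tested probe sets had U0126 changes of 0.08, -1 and -0.09. In all, 35 tested probe sets of members were not the brightest of their gene, and none of them was called in any of the 6 comparisons.

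**Figure D3:**
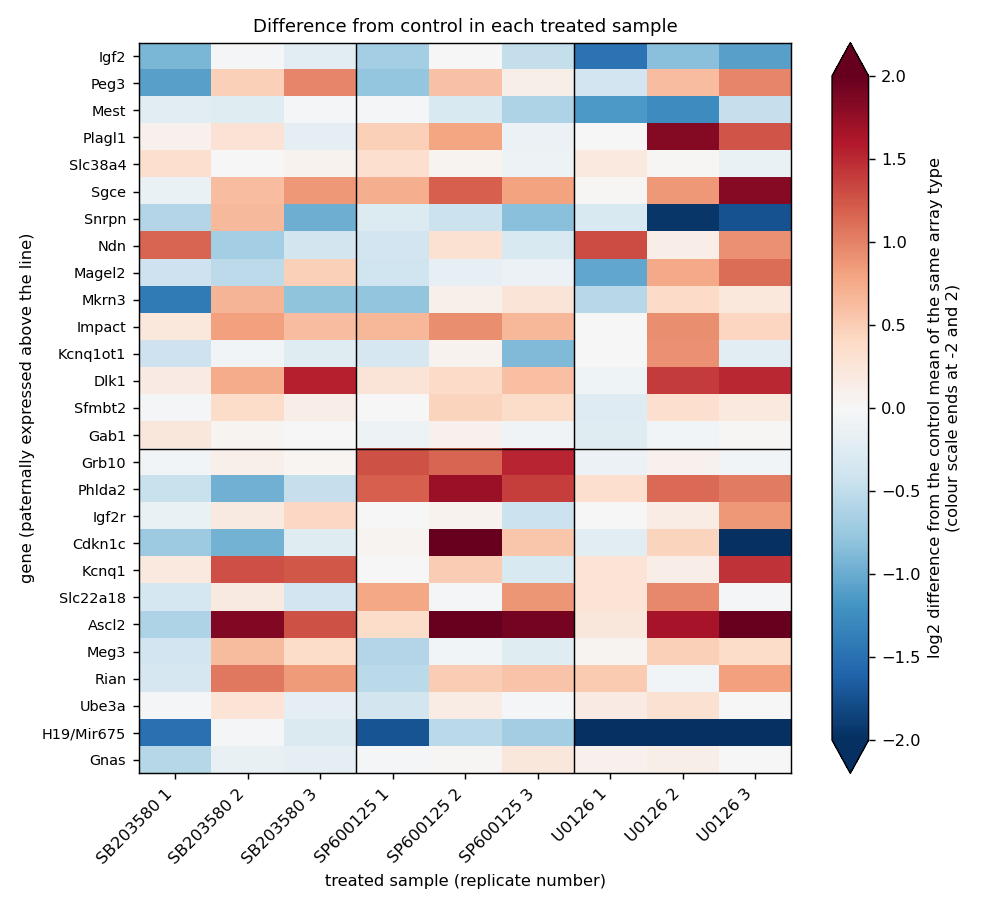
Log2 difference of each treated sample from the control mean of its own array type, for the 26 tested members and the H19/Mir675 probe set (rows; paternally expressed genes above the line) in the 9 treated samples (columns). The colour scale ends at -2 and 2: H19/Mir675 is at the lower end in all 3 U0126 samples, and Grb10 and Phlda2 are positive in all 3 SP600125 samples, between 1.17 and 1.72.

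The 5 dim members had 430 2.0 signals from 0.7 to 66.4 over all groups. Peg10, a retrotransposon-derived gene needed for the placenta, ran from 0.7 to 55.4, Nnat, a brain membrane protein gene, from 1.3 to 63.4, Nap1l5 from 13.3 to 46.8 and Zim1 from 1.4 to 64.2. Usp29, with 2 probe sets, ran from 3.4 to 66.4. With no signal filter, none of the 5 was called in any of the 6 comparisons.

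Genes that place, read or protect the imprints were counted from a list of 26, of which 21 were tested. None was called against the control with any inhibitor, and 2, 4 and 4 had an unadjusted p under 0.05 in limma with SB203580, SP600125 and U0126. The medians of the list were 0.01, -0.01 and 0. Dnmt3l, the cofactor of the methyltransferases that set imprints in germ cells, had a change of -0.7 ± 0.18 with SB203580 (adjusted p = 0.129 in limma) and of -0.7 ± 0.18 with SP600125 (adjusted p = 0.126). It was lower with SP600125 than with U0126 by -0.73 (adjusted p = 0.0389), where Suz12, a subunit of Polycomb repressive complex 2, which places the H3 lysine 27 mark, was higher by 0.46 (adjusted p = 0.0349).

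Of 15 genes of the IGF axis other than the members, among them the receptors, binding proteins and insulin receptor substrates, 11 were tested and none was called against the control. An unadjusted p under 0.05 in limma was found in 1, 2 and 2 of them, and the medians were -0.25, 0.07 and -0.11. Insr, the insulin receptor gene and a target of GRB10 binding, had a change of -0.79 ± 0.19 with SP600125 (adjusted p = 0.0856 in limma). It was lower with SP600125 than with U0126 by -1.14 (adjusted p = 0.00314).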

How the data were processed

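RNA of 12 blastocyst samples was measured on 16 Affymetrix arrays. The deposited values are linear signal intensity per probe set, which the authors scaled so that the trimmed mean (2% at each end) of every array is 500. This was checked on the values, and algorithm and genome build are not given in the sources used. Genes were named from the platform annotation, and probe sets naming several genes were kept apart. From the values, log2(signal + 12.6) was fitted in limma 3.58.1 (R 4.3.3) with group and array type as terms and an intensity trend, over 27022 probe sets with a mean 430 2.0 signal of at least 42.9, the 40th percentile. Tests were two-sided, with Benjamini-Hochberg adjustment per comparison and a threshold of 0.05. There were 7 residual degrees of freedom. A gene is represented by its brightest probe set. Members called in any comparison and the 6 brightest in the control were named with all values, and the others in ranges, with single signals for those named for a difference after the values were seen. The members and lists were chosen with earlier results of these data known. Another constant, filter, scaling and gene summary, 430 2.0 arrays alone, a replicate block and the omission of each sample were tried. The script was tested on simulated data with independent noise for U0126 against control, where 28% of changes of 1 log2 unit and 69% of changes of 2 were called. There were 9 false calls among the 27022 probe sets. The changed probe sets were drawn at random from all those tested, so these shares are not those of the members. A change that was not called is therefore not shown to be absent. The number of arrays limits the precision.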

Additional observations from a re-analysis of the deposited data

How the results depend on the processing

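Among 60 named changes, 1354 of 1380 values under other settings or omissions stayed on their side of the threshold, 24 lost the call, 2 gained it and none reversed a called direction. Both gains were Igf2 between SB203580 and U0126 (adjusted p = 0.0376 in limma after median centring, 0.0465 with each gene's probe sets averaged). Most of the 60 changes were not called as reported and so had no call to lose. The total therefore does not measure how stable the calls were. In 50 values a change that was uncalled before and after turned its sign. With no intensity trend the members called numbered 0 with SP600125 and 0 with U0126 against control, 1 between SB203580 and SP600125, 0 between SB203580 and U0126 and 1 between SP600125 and U0126. With averaged probe sets they numbered 1, 1, 1, 2 and 1. On the 430 2.0 arrays alone they were 0 for U0126 against control and 1 between SP600125 and U0126. Median centring gave 2 between SB203580 and U0126, and no signal filter gave 1 between SP600125 and U0126. The cause was not tested. Omitting 1 sample gave 2 to 3 members for SP600125 and 0 to 2 for U0126 against control, and 1 to 2 for U0126 against either other inhibitor. The members gained were Ascl2 with SP600125 (without control replicate 1) and Plagl1 for U0126 against control and against SB203580 (without U0126 replicate 1). The SP600125 median of paternal members ran from -0.21 to 0.07, the lowest without control replicate 3.

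Counts over all probe sets moved more. Against control, the other settings gave 1 to 141 for SB203580 (105 as reported), 8 to 189 for SP600125 (160) and 2 to 204 for U0126 (121), each lowest with no intensity trend, and the omissions 33 to 124, 76 to 193 and 53 to 119. Between inhibitors, the settings gave 23 to 264, 36 to 498 and 130 to 1024, and the omissions 99 to 258, 145 to 357 and 364 to 792. Median centring moved the median of all probe sets with U0126 from 0.06 to -0.05.

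The differences between replicates 2 and 3 were hardly correlated across groups (r of 0.018 to 0.088 over probe sets in 6 group pairs). A low correlation over all tested probe sets, dim ones included, cannot exclude a shared origin of samples with the same number. Replicate 1, on other arrays, could not be checked in this way. With the replicate number as a block, Igf2 with U0126 stayed at -1.13 (adjusted p = 0.00887 in limma), and no member call changed. The 5 dim members were not called with no signal filter either.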

Other observations

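A further list of 31 imprinted genes outside the 36, of which 19 were tested, gave no call against the control with any inhibitor, and 2, 4 and 2 had an unadjusted p under 0.05 in limma with SB203580, SP600125 and U0126. The medians were 0.05, -0.04 and 0. Ppp1r9a, a neuronal scaffold gene imprinted in extraembryonic tissue, had changes of -1.15, -1.1 and -1 with the 3 inhibitors (adjusted p = 0.076, 0.0856 and 0.118 in limma). Inpp5f, a phosphoinositide phosphatase gene, had changes of -0.6, -0.04 and -0.57 (adjusted p = 0.0939 with SB203580 and 0.102 with U0126). Cd81, a tetraspanin gene beside the Kcnq1 cluster, had a change of 0.89 ± 0.25 with SP600125 (adjusted p = 0.18). Between inhibitors, Commd1, a gene of copper handling that hosts Zrsr1, was lower with SP600125 than with U0126 by -0.6 (adjusted p = 0.0448).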
